A study of Homo sapiens with 20 samples.

Results

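ATP-binding cassette (ABC) transporter genes were measured by RNA sequencing in HEL cells, a human erythroleukaemia line with the JAK2 V617F mutation. The genes were the protein-coding entries whose symbol is ABC, a subfamily letter from A to G and a number, and 45 of the 55159 gene identifiers of the deposited tables met this description. Subfamily A held 12 of them, B 9, C 11, D 4, E 1, F 3 and G 5. TAP1, TAP2 and CFTR are ABC proteins whose symbols fall outside the pattern, and 16 entries of other biotypes with ABC symbols, such as pseudogenes, were not counted.

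A total of 20 libraries formed 10 groups of 2 in 3 tables. In one table, HEL cells had 4 h or 48 h of 1 µM BCI, which blocks the dual-specificity phosphatases DUSP1 and DUSP6, or of its solvent DMSO; the labels give 48 h for columns that the deposited table heads 24h. In the second, they had 10 µM BI-D1870, an inhibitor of the p90 ribosomal S6 kinases, together with 1 µM BCI, BI-D1870 alone, or DMSO, each for 24 h. The third table held ruxolitinib-persistent (RuxP) and fedratinib-persistent (FedP) cells, grown for a long time with one of these JAK2 inhibitors, and parental HEL cells. The labels do not say whether the inhibitor was present at harvest or whether the persistent cells were clones. All groups carry the JAK2 mutation, and no source says that the 2 libraries of a group came from separate cultures, so the p-values below reflect the spread between libraries, which may be technical.

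ABC proteins couple the binding and hydrolysis of ATP at paired cassette domains to the movement of lipids, drugs, peptides, haem intermediates or ions across a membrane. ABCB1 (P-glycoprotein), ABCC1 (MRP1) and ABCG2 (BCRP) export many anticancer drugs and are the classical multidrug pumps of leukaemia cells. Subfamilies E and F are exceptions within the family, since they have cassettes but no membrane-spanning part and act on ribosomes.

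Library totals ran from 51799814 to 84452743 counts, and levels are given as CPM (counts scaled to library size) by the TMM method within each table. In HEL cells all 8 erythroid and all 5 megakaryocyte identity genes exceeded 1 CPM in every library. Of a list of 12 genes of other cell types, the T cell, B cell, epithelial and stromal markers reached at most 1.43 CPM (EPCAM), and MPO at most 0.603 CPM. The rest of that list was not low. Over the 3 tables PECAM1 ran from 81.2 to 708 CPM, LYZ from 10.98 to 54.3 CPM and CDH5 from 4.84 to 41.95 CPM. The persistent table was the most variable, with a median absolute log2 difference between the 2 libraries of a group of 0.08 for FedP, 0.34 for RuxP and 0.51 for parental cells over all genes. Everywhere, RNA from fewer cells and less RNA per cell cannot be told apart in such bulk samples.

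Levels differed over several orders of magnitude between ABC genes. Of the 45, 25 were at or above 1 CPM in every library and 15 stayed below 1 CPM in every library. A filter on low counts kept 34 in all 3 tables. ABCA4 passed it in the BCI and persistent tables, and ABCA6, ABCA9 and ABCA10 passed it in the persistent table alone. The remaining 7, ABCA8, ABCA13, ABCC8, ABCC12, ABCD2, ABCG5 and ABCG8, had at most 23 counts in any library and were too low to judge.

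Per kilobase of exonic length, ABCC4 (MRP4, an exporter of cyclic nucleotides and prostanoids that platelets store in dense granules) was the most abundant member in 16 of 20 libraries, with 42.7 to 114 CPM per kb. ABCF1, which promotes translation initiation, was highest in the other 4, all of them treated with BI-D1870, and ranged from 31.9 to 67.3 CPM per kb. Among the classical pumps ABCB1 had a median of 21.1 and ABCC1 of 12 CPM per kb over the 20 libraries, whereas ABCG2 had a median of 0.182 CPM per kb.

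In subfamily A, ABCA7, a phospholipid exporter, led with 11.5 to 70.0 CPM per kb, ahead of ABCA2, a lipid transporter of endosomes and lysosomes, with 1.91 to 7.30 CPM per kb. In subfamily B the mitochondrial ABCB10, which has a part in haem production, followed ABCB1 with 5.77 to 27.2 CPM per kb. The bile transporters ABCB4 and ABCB11 were low, at 0.171 to 0.494 and 0.00902 to 0.120 CPM per kb. In subfamily D the peroxisomal fatty acid importer ABCD3 ranged from 2.99 to 17.9 CPM per kb. In subfamily G, ABCG1, which moves cholesterol towards lipoproteins, had 2.48 to 17.2 CPM per kb.

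**Figure D1:**
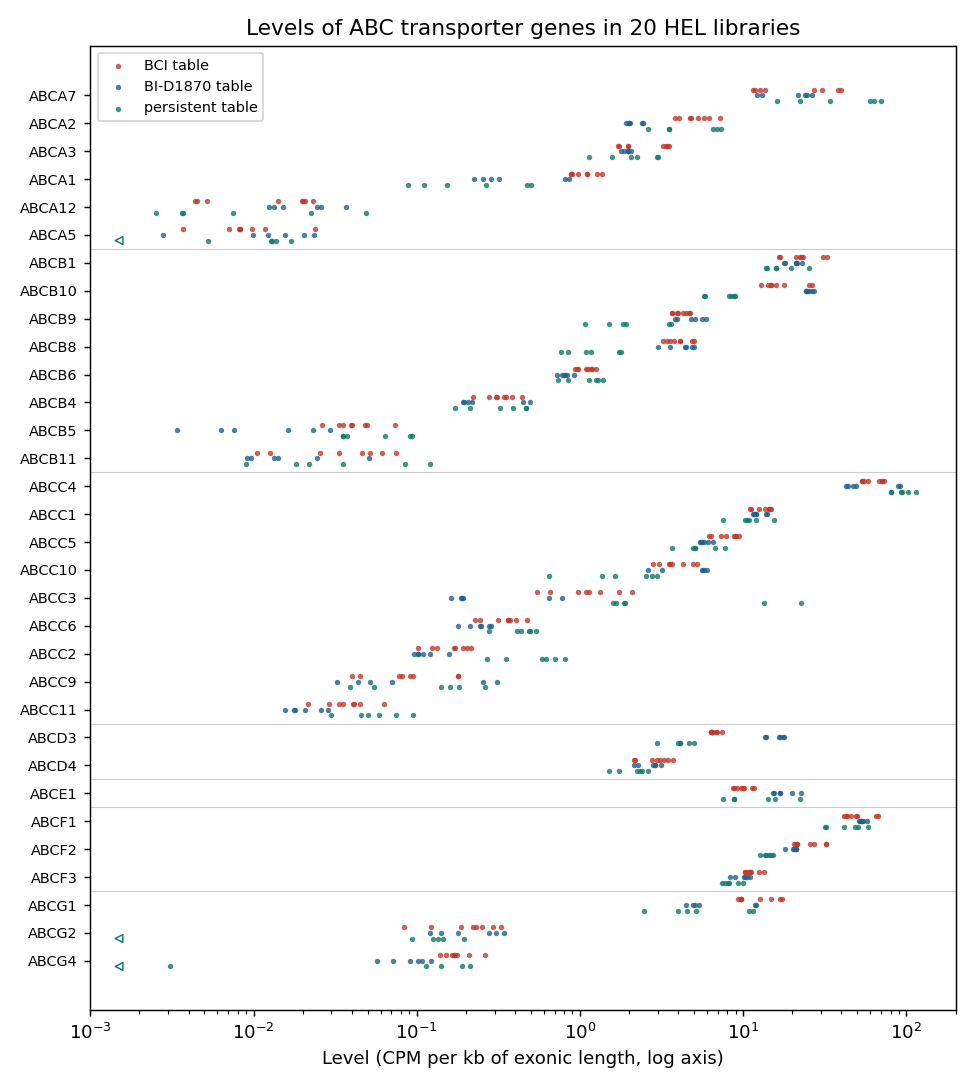
Level of 32 ABC genes tested in all 3 tables (rows, by subfamily, separated by lines) in 20 HEL libraries, in CPM per kb on a log axis; each point is 1 library, coloured by table, and an open triangle at the left edge marks a library with 0 counts. By median, ABCC4 and ABCF1 lie farthest to the right, while ABCA7 reaches 70.0 CPM per kb, beyond the 67.3 of ABCF1. ABCC3 has 2 points of the persistent table, both parental, far above its others.

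Some counts are uncertain because exons are shared. By the GENCODE 29 annotation, ABCB6 shares 54.7% and ABCF2 45.8% of its exonic length with another protein-coding entry on the same strand, and 20.7% of ABCB9 lies opposite another transcript, and whether strand was used in the counting is unknown. ABCC6, ABCF2 and ABCB10 are among the genes with pseudogene copies, whose own entries reached at most 1.52 CPM in the BCI table.

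The classical pumps followed no common course across the groups. ABCB1 had 191 and 179.9 CPM in the BCI libraries of 4 h, against 97.2 and 96.0 CPM in the DMSO libraries of 4 h. It had 132 and 130.2 CPM after 48 h of BCI, against 123 and 135 CPM after 48 h of DMSO. The 4 h BCI libraries were thus the highest of all 20 for ABCB1, and the groups overlapped at 48 h and not at 4 h.

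In the second table ABCB1 had 122 and 123 CPM with BI-D1870 and BCI, 132 and 124 CPM with BI-D1870 and 105 and 103 CPM with DMSO, without overlap between either treatment and DMSO. In the third it had 79.8 and 80.8 CPM in FedP, 91.8 and 92.5 CPM in RuxP and 115 and 147 CPM in parental cells, with both persistent lines below both parental libraries.

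ABCC1 had 109.5 and 112 CPM after 4 h of BCI, against 111 and 109 CPM after 4 h of DMSO, and 84.2 and 94.5 CPM after 48 h of BCI, against 82.9 and 103 CPM after 48 h of DMSO. These pairs of groups overlapped. ABCC1 had 86.7 and 91.1 CPM with both inhibitors and 91.1 and 88.4 CPM with BI-D1870, all below the 105 and 105 CPM of DMSO at 24 h. It had 78.2 and 82.0 CPM in FedP, 56.7 and 80.4 CPM in RuxP and 116 and 91.0 CPM in parental cells.

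ABCG2 was low, with 0 to 129 counts per library. Its 2 libraries differed widely at 48 h, with 1.47 and 0.423 CPM after BCI, against 1.65 and 0.614 CPM after DMSO. One RuxP library had 0 counts, which allows up to 0.0603 CPM by counting error alone, and the other had 40 counts. In the second table it had 0.706 and 0.604 CPM with both inhibitors, 0.898 and 1.72 CPM with BI-D1870 and 1.53 and 1.39 CPM with DMSO.

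**Figure D2:**
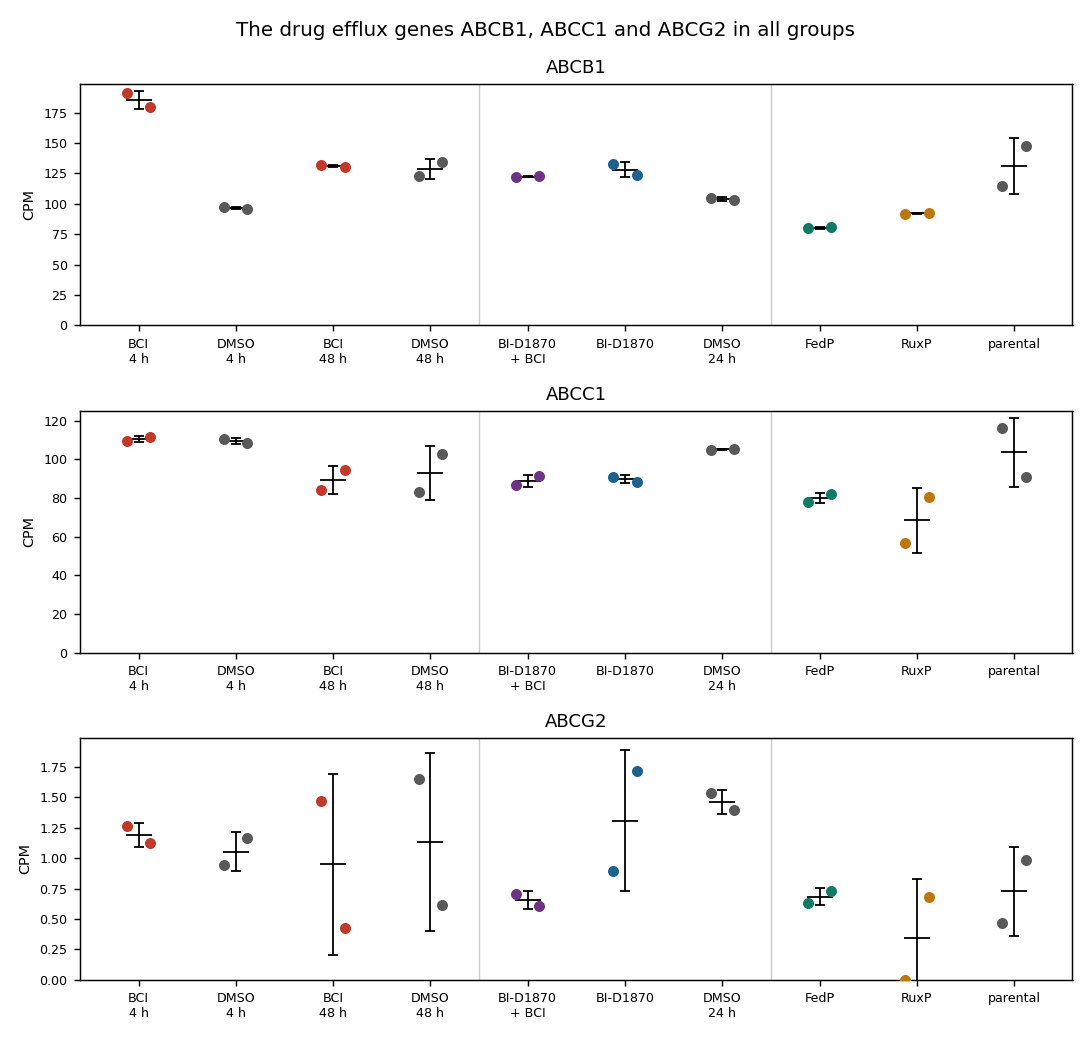
CPM of ABCB1, ABCC1 and ABCG2 in every library (points), with the mean and SD of each group of 2 (bars; the ABCG2 bar of RuxP runs below the axis and is cut at 0). Grey lines part the 3 tables, which were scaled separately; ABCB1 peaks after 4 h of BCI, at 185 ± 7.70 CPM.

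BCI for 4 h raised 2 ABC genes and lowered 3. ABCB1 and ABCD4, the lysosomal transporter of vitamin B12, rose, and all 3 members of subfamily F fell. These 5 of 35 tested genes are 14.3%, close to the 10.7% of all 21908 genes that passed an edgeR quasi-likelihood test at a Benjamini-Hochberg adjusted p under 0.05 (called "edgeR adjusted p" from here on). Of all genes 4.8% rose and 5.94% fell. The BCI and DMSO libraries did not overlap for 20 of 35 ABC genes, close to the 58.9% of all genes. The median log2 fold change was 0.01 over the ABC genes and 0.02 over all genes tested.

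ABCB1 averaged 185 ± 7.70 CPM with BCI and 96.6 ± 0.845 CPM with DMSO (mean ± SD, n = 2 each, as for all averages below), a log2 fold change of 0.94 (SE 0.078, edgeR adjusted p = 1.72e-04). ABCD4 had 30.3 and 32.8 CPM with BCI, against 18.7 and 19.2 CPM with DMSO (log2 fold change 0.73, SE 0.11, edgeR adjusted p = 0.00249). Neither gene overlapped between the groups, and both kept their call when any 1 of the 4 libraries was left out.

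ABCF1 had 226 and 221 CPM with BCI, against 294 and 304 CPM with DMSO (log2 fold change -0.42, SE 0.075, edgeR adjusted p = 0.00773). ABCF2, of which less is known, had 113 and 107 CPM with BCI, against 135 and 135 CPM with DMSO (log2 fold change -0.29, SE 0.072, edgeR adjusted p = 0.0336). ABCF3 had 53.6 and 53.2 CPM with BCI, against 64.8 and 70.0 CPM with DMSO (log2 fold change -0.34, SE 0.079, edgeR adjusted p = 0.0264). All 3 were lower in both BCI libraries than in both DMSO libraries, yet all 3 lost their call when any 1 of the 4 libraries was left out, with edgeR adjusted p up to 0.119 for ABCF1, 0.246 for ABCF2 and 0.261 for ABCF3.

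A further 7 genes passed an unadjusted p of 0.05 but not the adjusted one. ABCE1, which splits ribosomes after termination, had a log2 fold change of -0.32 (SE 0.098, edgeR adjusted p = 0.0678). The organic anion exporter ABCC3 (MRP3) had 9.35 and 11 CPM with BCI, against 5.24 and 6.26 CPM with DMSO, and a log2 fold change of 0.82 (SE 0.26, edgeR adjusted p = 0.0833). ABCC9, the sulfonylurea receptor subunit of potassium channels, had 2.08 and 2.07 CPM with BCI, against 0.940 and 0.906 CPM with DMSO, and a log2 fold change of 1.17 (SE 0.42, edgeR adjusted p = 0.118). Neither ABCC3 nor ABCC9 overlapped between the groups. The others were ABCC2, ABCC5, ABCC6 and ABCB4, with log2 fold changes from 0.27 to 0.68. Fitted with the 4 h groups alone, 16 of 34 tested ABC genes passed, 9 up and 7 down, while the calls over all genes numbered 5691, against 2354 in the fit of all groups.

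The promoters of the 5 called genes are shown because these genes were called at the same time point, and they were searched for 3 motifs on both strands. The motifs were the heat shock element GAANNTTC, the antioxidant response element TGACNNNGC and the GC box GGGCGG. Sequences are from RefSeq on GRCh38.p14, 5′ to 3′ on the gene's strand, 250 bases before to 50 after the start, and capitals mark motif letters. They lie at chr7:87713246-87713545 (minus strand) for ABCB1, chr14:74302885-74303184 (minus strand) for ABCD4, chr6:30571192-30571491 (plus strand) for ABCF1, chr7:151227156-151227455 (minus strand) for ABCF2 and chr3:184185949-184186248 (plus strand) for ABCF3.
ABCB1: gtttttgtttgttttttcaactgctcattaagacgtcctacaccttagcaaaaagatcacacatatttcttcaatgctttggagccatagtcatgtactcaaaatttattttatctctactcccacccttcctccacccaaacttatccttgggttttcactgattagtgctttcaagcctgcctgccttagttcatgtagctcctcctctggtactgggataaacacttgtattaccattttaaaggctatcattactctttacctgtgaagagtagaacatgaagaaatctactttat
ABCD4: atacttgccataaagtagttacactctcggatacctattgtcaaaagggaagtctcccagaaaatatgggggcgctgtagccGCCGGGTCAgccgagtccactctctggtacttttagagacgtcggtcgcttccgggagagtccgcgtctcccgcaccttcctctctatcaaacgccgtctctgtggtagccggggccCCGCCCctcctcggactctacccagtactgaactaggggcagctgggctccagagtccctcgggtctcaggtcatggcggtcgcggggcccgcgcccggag
ABCF1: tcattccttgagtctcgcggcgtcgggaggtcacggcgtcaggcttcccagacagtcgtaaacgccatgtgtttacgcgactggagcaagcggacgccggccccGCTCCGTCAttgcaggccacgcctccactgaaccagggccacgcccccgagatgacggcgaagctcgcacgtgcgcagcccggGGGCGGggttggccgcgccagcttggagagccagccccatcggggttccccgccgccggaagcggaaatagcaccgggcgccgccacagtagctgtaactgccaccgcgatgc
ABCF2: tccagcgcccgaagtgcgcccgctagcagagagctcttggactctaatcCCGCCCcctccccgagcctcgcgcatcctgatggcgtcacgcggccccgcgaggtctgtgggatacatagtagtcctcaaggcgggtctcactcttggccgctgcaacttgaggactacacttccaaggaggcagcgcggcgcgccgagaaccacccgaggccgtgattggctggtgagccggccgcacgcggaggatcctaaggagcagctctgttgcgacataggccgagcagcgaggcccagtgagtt
ABCF3: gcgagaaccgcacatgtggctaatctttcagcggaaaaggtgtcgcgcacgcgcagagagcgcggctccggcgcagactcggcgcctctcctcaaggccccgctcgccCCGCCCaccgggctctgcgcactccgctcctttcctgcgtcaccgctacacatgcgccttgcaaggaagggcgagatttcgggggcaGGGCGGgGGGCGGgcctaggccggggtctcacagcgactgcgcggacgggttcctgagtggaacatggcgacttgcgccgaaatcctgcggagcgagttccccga

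The ABCB1 window held none of these letters. It lies at the upstream end of the annotated span of the gene, from 87503633 to 87713323. Only 1 window per gene was searched, so this says nothing about any other start site of ABCB1. ABCD4 and ABCF1 each held 1 antioxidant response element and 1 GC box, ABCF2 held 1 GC box and ABCF3 held 3. Of 27305 promoters in the reference, 6.87% held the heat shock element, 13.6% the antioxidant response element and 44.6% the GC box, against 1, 7 and 18 of the 35 ABC genes with a sequence. No motif shared a base with another in these 5 windows.

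Genes around the transporters moved as follows at 4 h, in lists drawn up by function, beside 4.8% of all genes up and 5.94% down. Earlier results of these data were known when the lists were drawn up, so their shares are not independent of the data. Of 16 genes that supply or conjugate glutathione, a substrate and co-substrate of MRP-type pumps, 3 rose and none fell: GCLM, a subunit of the first enzyme of its synthesis, by 2.17, the cystine importer SLC7A11 by 2.09 and glutathione reductase GSR by 0.97 on the log2 scale. Of 14 tested genes of other drug efflux, uptake and sequestration, none rose and 5 fell, among them the folate importers SLC46A1 (-1.05) and SLC19A1 (-0.91) and the nucleoside importers SLC28A3 (-0.99) and SLC29A2 (-0.93). Of 11 partners in ribosome recycling and translation control, PELO rose by 0.49 and EIF2S1 had -0.36. The antigen peptide list, with TAP1 and TAP2, had 0 of 10 calls by edgeR, with 1 gene (TAPBP) at an unadjusted p under 0.05. The sterol list had 1 up (NPC1, 0.45) and 1 down (MYLIP, -0.48) of 13, the peroxisomal list 1 up of 12, the mitochondrial haem and iron-sulfur list 1 down (NFS1, -0.38) of 14, and the list of regulators of ABC genes 1 up (PPARD, 0.41) of 12. Among 8 erythroid identity genes KLF1 was called, with a log2 fold change of -0.88, and the 8 summed to 2837 to 3024 CPM with BCI, against 2832 to 2857 CPM with DMSO. Their part in the ABC results was not tested.

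At 48 h no ABC gene was called, nor was any of the 21908 genes tested (0%). No ABC gene reached an unadjusted p under 0.05 in edgeR, 316 of all genes did, and DESeq2 called 0 ABC genes. With no low-count filter 27 genes were called, none of them an ABC gene. The groups did not overlap for 4 of 35 ABC genes, against 21.2% of all genes. ABCB1 averaged 131 ± 1.12 CPM with BCI and 129 ± 8.58 CPM with DMSO, a log2 fold change of 0.03 (SE 0.077, edgeR adjusted p = 1.00). ABCD4 had 24.4 and 28.7 CPM with BCI, against 26.1 and 27.2 CPM with DMSO. ABCF1 had 207 and 188 CPM with BCI, against 192 and 196 CPM with DMSO. The groups overlapped in all 3 genes. None of the partner genes listed above was called at 48 h or had an unadjusted p under 0.05 in edgeR.

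The BCI effect at 48 h minus that at 4 h was tested in the same fit, and 2 of 35 ABC genes passed (5.71%), both downward, against 3.46% of all genes and 1.37% downward. ABCB1 differed by -0.91 (SE 0.11, edgeR adjusted p = 0.00334) and ABCD4 by -0.74 (SE 0.15, edgeR adjusted p = 0.0291) on the log2 scale, both with the smaller effect at 48 h. The ABCF genes did not pass, at 0.45, 0.32 and 0.34 with edgeR adjusted p of 0.0560, 0.143 and 0.147 for ABCF1, ABCF2 and ABCF3. Leaving out the second DMSO library of 4 h ended the ABCB1 call (edgeR adjusted p = 0.0504), and leaving out any 4 h library or the first BCI library of 48 h ended that of ABCD4. GCLM, SLC7A11 and GSR also differed, by -2.11, -1.94 and -0.89.

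**Figure D3:**
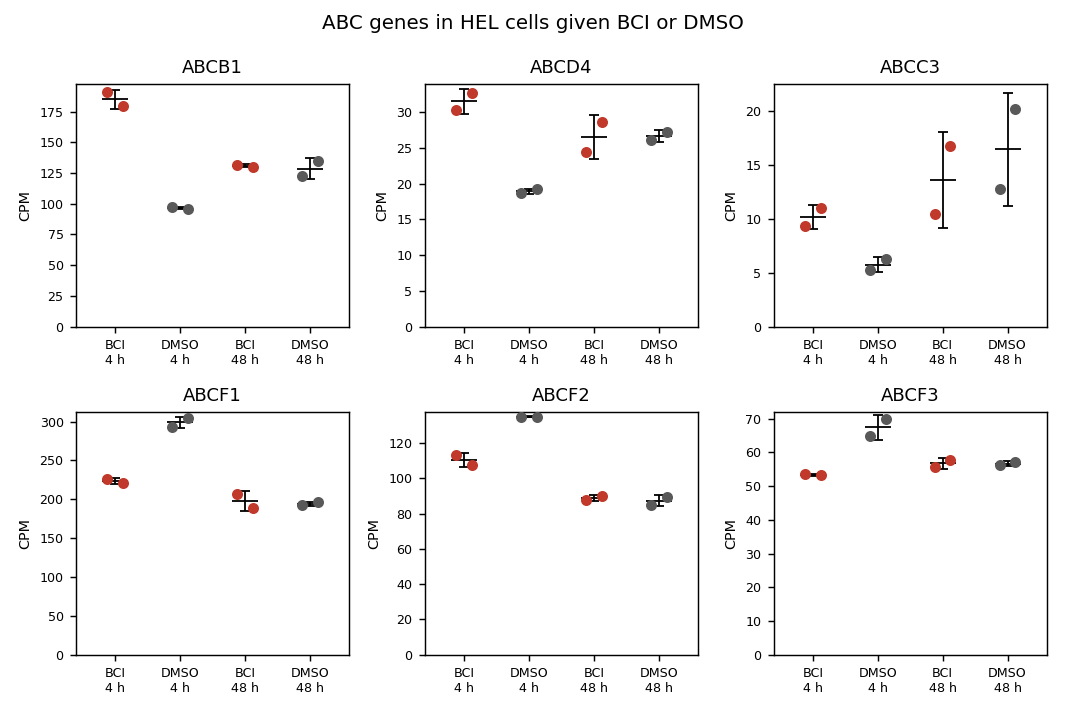
CPM of 6 ABC genes in every library (points) with mean and SD (bars, n = 2) after 4 h and 48 h of BCI or DMSO. ABCB1 and ABCD4 lie higher and ABCF1, ABCF2 and ABCF3 lower with BCI at 4 h, while at 48 h the groups lie side by side.

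BI-D1870 and BCI together for 24 h raised 10 and lowered 12 of 34 tested ABC genes against DMSO, 64.7% against 46.8% of all 21328 genes tested. BI-D1870 by itself raised 9 and lowered 11, 58.8% against 47.1% of all genes. By direction, 22.6% of all genes rose and 24.3% fell with both inhibitors, and 22.8% rose and 24.3% fell with BI-D1870. Treated and DMSO libraries did not overlap for 30 ABC genes with both, against 71.4% of all genes, and for 28 with BI-D1870, against 70.5%. Both comparisons share their DMSO libraries, so the values of each are given side by side. The median log2 fold change over the ABC genes was -0.16 with both inhibitors and -0.08 with BI-D1870, and over all genes -0.01 in each.

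ABCA1 and ABCG1, both sterol exporters, fell. ABCA1, which loads cholesterol and phospholipid onto apolipoprotein, had 2.88 and 3.62 CPM with both inhibitors, 3.26 and 2.55 CPM with BI-D1870 and 9.75 and 9.18 CPM with DMSO. ABCG1 had 31.2 and 30.3 CPM with both, 33.0 and 27.5 CPM with BI-D1870 and 73.3 and 72.3 CPM with DMSO. Every treated library lay below every DMSO library for both genes. The log2 fold changes were -1.54 (SE 0.15, edgeR adjusted p = 4.54e-08) and -1.71 (SE 0.15, edgeR adjusted p = 1.69e-08) for ABCA1 with both inhibitors and with BI-D1870. For ABCG1 they were -1.24 (SE 0.068, edgeR adjusted p = 1.15e-11) with both and -1.27 (SE 0.068, edgeR adjusted p = 1.14e-11) with BI-D1870.

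One subfamily A gene rose, ABCA7, with 207 and 220.3 CPM with both inhibitors, 182 and 201 CPM with BI-D1870 and 101 and 109 CPM with DMSO. Its log2 fold change was 1.02 (SE 0.051, edgeR adjusted p = 3.66e-12) with both and 0.86 (SE 0.051, edgeR adjusted p = 4.47e-11) with BI-D1870, without overlap with DMSO. ABCA2 fell slightly, with a log2 fold change of -0.28 with both and -0.30 with BI-D1870. ABCA3, the surfactant lipid transporter of the lung, did not pass, at 0.10 with both and 0.03 with BI-D1870.

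In subfamily C, 5 of 9 genes fell and 1 rose in either comparison. ABCC4 had 369 and 377 CPM with both inhibitors, 423 and 405 CPM with BI-D1870 and 784 and 771 CPM with DMSO. It averaged 373 ± 5.94 CPM with both and 414 ± 12.5 CPM with BI-D1870, against 778 ± 9.19 CPM with DMSO, and had a log2 fold change of -1.06 (SE 0.038, edgeR adjusted p = 2.69e-14) with both and -0.91 (SE 0.038, edgeR adjusted p = 2.37e-13) with BI-D1870. ABCC4 was the highest member per kb with DMSO and ranked below ABCF1 in all 4 treated libraries.

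ABCC3 had 1.79 and 1.84 CPM with both inhibitors, 1.55 and 1.81 CPM with BI-D1870 and 7.47 and 6.17 CPM with DMSO, a log2 fold change of -1.91 (SE 0.17, edgeR adjusted p = 1.76e-08) with both and -2.01 (SE 0.18, edgeR adjusted p = 1.24e-08) with BI-D1870. ABCC9, at 41 and 27 counts with both, 44 and 32 counts with BI-D1870 and 162 and 221 counts with DMSO, had the largest fall among the called ABC genes, -2.74 (SE 0.30, edgeR adjusted p = 2.03e-07) with both and -2.32 (SE 0.29, edgeR adjusted p = 1.56e-06) with BI-D1870. ABCC1 fell less, with log2 fold changes of -0.24 (SE 0.045, edgeR adjusted p = 1.54e-04) with both and -0.23 (SE 0.045, edgeR adjusted p = 2.98e-04) with BI-D1870, and ABCC5 (MRP5) had -0.15 with both and -0.18 with BI-D1870. The ABCC5 call was lost without the second DMSO library, among others, with edgeR adjusted p up to 0.215 with both and 0.164 with BI-D1870.

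ABCC10 (MRP7, an exporter of taxanes) was the one riser of its subfamily. It had 46.6 and 48.7 CPM with both inhibitors, 45.5 and 46.0 CPM with BI-D1870 and 21.0 and 25.7 CPM with DMSO, with log2 fold changes of 1.03 (SE 0.074, edgeR adjusted p = 6.56e-10) with both and 0.97 (SE 0.074, edgeR adjusted p = 1.85e-09) with BI-D1870. ABCC2, ABCC6 and ABCC11 passed in neither comparison.

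Subfamily B was split. ABCB1 rose by a log2 fold change of 0.24 (SE 0.044, edgeR adjusted p = 1.67e-04) with both inhibitors and 0.30 (SE 0.044, edgeR adjusted p = 1.18e-05) with BI-D1870. ABCB9, a peptide transporter of lysosomes, had 63.7 and 67.4 CPM with both, 73.9 and 79.0 CPM with BI-D1870 and 51.0 and 52.3 CPM with DMSO, with log2 fold changes of 0.34 (SE 0.052, edgeR adjusted p = 1.59e-05) with both and 0.57 (SE 0.052, edgeR adjusted p = 2.49e-08) with BI-D1870. ABCB8, a mitochondrial transporter, had 45.1 and 46.8 CPM with both, 41.1 and 41.9 CPM with BI-D1870 and 28.0 and 33.1 CPM with DMSO, with log2 fold changes of 0.59 (SE 0.068, edgeR adjusted p = 5.48e-07) with both and 0.44 (SE 0.069, edgeR adjusted p = 2.31e-05) with BI-D1870. All 3 lay above DMSO in every treated library.

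The phospholipid transporter ABCB4 fell, with 1.69 and 1.60 CPM with both inhibitors, 1.48 and 1.5 CPM with BI-D1870 and 3.47 and 3.81 CPM with DMSO and log2 fold changes of -1.15 (SE 0.19, edgeR adjusted p = 4.99e-05) with both and -1.29 (SE 0.20, edgeR adjusted p = 1.76e-05) with BI-D1870. No treated library reached the DMSO range. The mitochondrial ABCB10 and the porphyrin transporter ABCB6 did not pass in either comparison, and the fold of ABCB5, -1.88 with both and -1.45 with BI-D1870, rested on at most 15 counts in each of these libraries and did not pass.

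In subfamily D the peroxisomal ABCD3 rose. It had 127 and 128 CPM with both inhibitors, 136 and 134 CPM with BI-D1870 and 104 and 105 CPM with DMSO, with log2 fold changes of 0.29 (SE 0.041, edgeR adjusted p = 7.31e-06) with both and 0.37 (SE 0.041, edgeR adjusted p = 3.51e-07) with BI-D1870. ABCD4 rose by 0.45 with both and 0.36 with BI-D1870. In no library of either treatment did ABCD3 or ABCD4 fall to the DMSO range.

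ABCE1 had 96.3 and 95.1 CPM with both inhibitors, 105 and 106 CPM with BI-D1870 and 141 and 126 CPM with DMSO, with log2 fold changes of -0.48 (SE 0.050, edgeR adjusted p = 1.27e-07) with both and -0.34 (SE 0.050, edgeR adjusted p = 1.30e-05) with BI-D1870. ABCF3 rose by 0.26 with both and 0.30 with BI-D1870, ABCF2 passed in the comparison of both inhibitors with DMSO, at 0.14 with both and 0.12 with BI-D1870, and ABCF1 did not pass, at 0.06 with both and 0.09 with BI-D1870. ABCF2 lost its call without the first DMSO library or the first library of both inhibitors (edgeR adjusted p up to 0.425).

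ABCG2 fell with both inhibitors, with a log2 fold change of -1.16 (SE 0.32, edgeR adjusted p = 0.00513), and did not pass with BI-D1870, at -0.15 (SE 0.30, edgeR adjusted p = 0.730). Set directly against BI-D1870, the pair gave a log2 fold change of -1.01 (SE 0.32, edgeR adjusted p = 0.0846) for ABCG2. That difference was called with no low-count filter (edgeR adjusted p = 0.0305) and without the first BI-D1870 library (0.0345), and its edgeR adjusted p reached 0.619 in other alternatives. ABCG4, a sterol transporter of the brain, did not pass in either comparison.

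**Figure D4:**
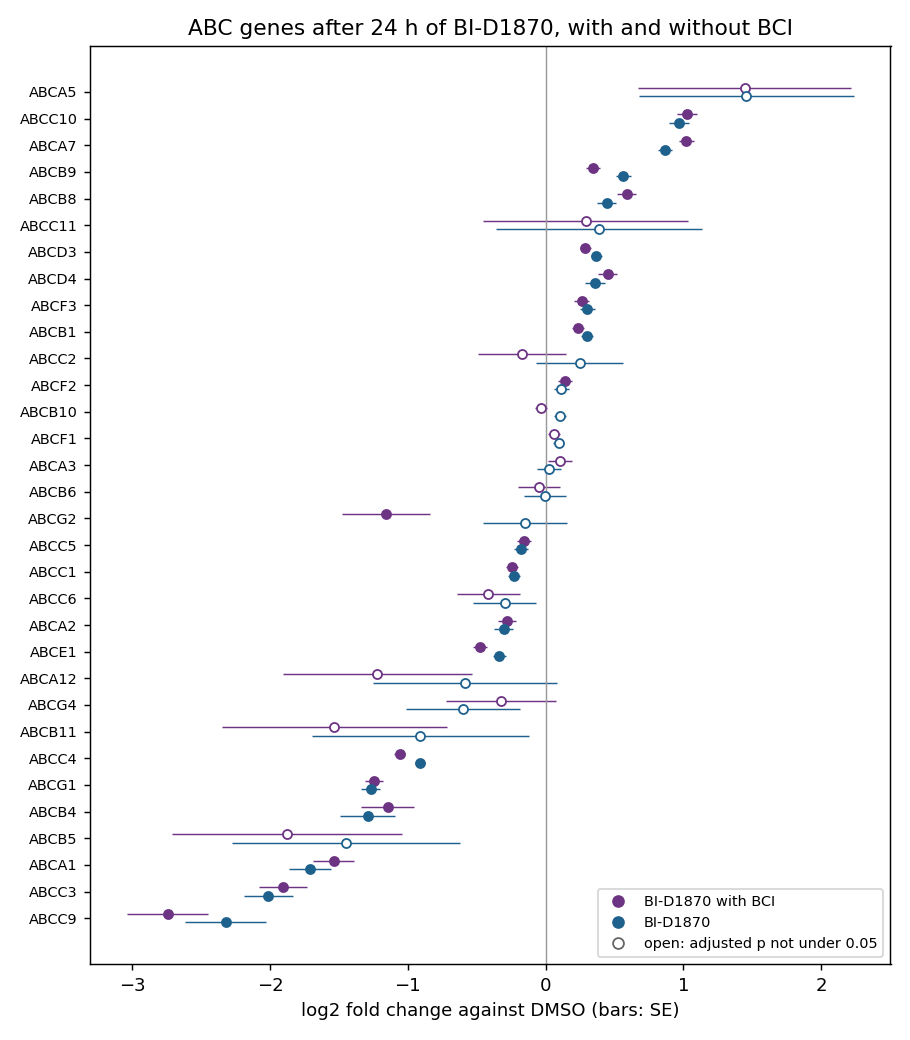
Log2 fold change against DMSO (horizontal axis, bars are standard errors) of 32 tested ABC genes after 24 h of BI-D1870 with BCI or of BI-D1870; open points did not pass the adjusted test. Both treatments share their DMSO libraries. Among called genes, ABCC10 and ABCA7 lie near 1 and ABCC9, ABCC3 and ABCA1 beyond -1.5. ABCA5 lies farthest to the right, at 1.45 with both and 1.46 with BI-D1870, and ABCB5 lies at -1.88 with both. ABCA5 and ABCB5 had low counts and did not pass.

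Against BI-D1870, adding BCI moved 3 of 34 ABC genes (8.82%, against 4.71% of all genes), 1 up and 2 down, against 2.22% of all genes up and 2.48% down. ABCB9 and ABCC4 fell, with log2 fold changes of -0.22 (SE 0.051, edgeR adjusted p = 0.0145) for ABCB9 and -0.15 (SE 0.038, edgeR adjusted p = 0.0253) for ABCC4. Both were among 17 ABC genes whose groups did not overlap, against 46.7% of all genes. Leaving out 1 library gave 0 to 3 calls, with none left without the second BI-D1870 library. ABCC4 lost its call whichever of the 4 libraries was left out, and ABCB9 also without the first library of both inhibitors. ABCB1 had -0.06 (SE 0.044, edgeR adjusted p = 0.519) and ABCC1 -0.01 (SE 0.045, edgeR adjusted p = 0.935), neither of them called.

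Of the 3 ABC proteins outside the symbol pattern TAP1 and TAP2, which carry peptides to MHC class I, fell and the chloride channel CFTR did not pass. TAP1 had log2 fold changes of -0.79 with both inhibitors and -0.39 with BI-D1870, and TAP2 of -0.73 with both and -0.31 with BI-D1870. Set against BI-D1870, the pair gave TAP1 a log2 fold change of -0.40 (SE 0.058, edgeR adjusted p = 2.81e-04) and TAP2 one of -0.42 (SE 0.069, edgeR adjusted p = 9.95e-04). Of the 10 genes of the antigen peptide list 9 fell and 1 rose with both inhibitors, and 7 fell and none rose with BI-D1870. Of all genes 24.3% fell in either comparison. ERAP2 (-1.99 with both and -1.34 with BI-D1870) and ERAP1 (-0.93 with both and -0.90 with BI-D1870) were farthest down in that list.

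For the lists below, the share of all genes called was 46.8% with both inhibitors and 47.1% with BI-D1870. The sterol list had 6 up and 2 down of 13 with both inhibitors and 5 up and 2 down with BI-D1870. Among them were NPC2 (0.98 with both and 0.99 with BI-D1870), MYLIP (0.63 with both and 0.77 with BI-D1870) and the scavenger receptor SCARB1 (-0.50 with both and -0.46 with BI-D1870). Of the other drug transport list, 1 rose and 7 fell of 14 in each comparison, with SLC28A3 at -2.06 with both and -2.12 with BI-D1870 and the copper exporter ATP7B at -0.98 with both and -0.80 with BI-D1870. The glutathione list had 7 up and 4 down of 16 with both and 6 up and 6 down with BI-D1870, and MGST1 was its largest fall (-1.51 with both and -1.27 with BI-D1870). The highest log2 fold change in that list was 1.42 with both and 1.37 with BI-D1870. The peroxisomal list had 5 up and 3 down of 12 with both and 4 up and 2 down with BI-D1870, led by ACSL1 (0.91 with both and 0.99 with BI-D1870). Against BI-D1870 alone, adding BCI moved 6 of the antigen peptide genes, all down, beside 4.71% of all genes. It also moved 4 of 14 mitochondrial genes, all down, and 4 of 16 glutathione genes, 1 up and 3 down. Of the sterol list it moved 1 up and 1 down of 13. It lowered 2 of 12 regulators and 1 of 14 other drug transport genes. It moved none of the peroxisomal or ribosome lists in edgeR, where 2 of each had an unadjusted p under 0.05. The mitochondrial list had 4 up and 6 down of 14 with both and 4 up and 3 down with BI-D1870, the ribosome list 3 up and 3 down of 11 with both and 2 up and 3 down with BI-D1870, and the regulators 3 up and 3 down of 12 with both and 3 up and 4 down with BI-D1870.

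Identity genes moved beside these results. The 8 erythroid genes summed to 2329 to 2605 CPM with both inhibitors and 3159 to 3257 CPM with BI-D1870, against 4055 to 4193 CPM with DMSO. Much of this sum was HBG2, at 1039 to 2657 CPM in these libraries. Of the 8, 2 rose and 6 fell in each comparison, beside 46.8% of all genes called with both and 47.1% with BI-D1870. The 5 megakaryocyte genes summed to 1538 to 1619.9 CPM with both and 1518 to 1522 CPM with BI-D1870, against 1768 CPM with DMSO. Most of this sum was ITGA2B, at 1172 to 1356 CPM. Of the 5, 1 rose and 3 fell with both, and 1 rose and 4 fell with BI-D1870. The 12 genes of other cell types summed to 124 CPM with both, 98.6 to 107 CPM with BI-D1870 and 246 to 252 CPM with DMSO. Most of this sum was PECAM1, at 81.2 to 219 CPM. The part of these genes in the ABC results was not tested.

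In the persistent cells few ABC genes passed, and ABCC3 fell in both lines. It had 16 and 18.2 CPM in FedP, 17.9 and 15.4 CPM in RuxP and 216 and 129 CPM in parental cells. The log2 fold change was -3.33 (SE 0.29, edgeR adjusted p = 0.00471) in FedP and -3.37 (SE 0.29, edgeR adjusted p = 0.00445) in RuxP. Both comparisons share the parental libraries, which had the largest median difference of any pair, and every persistent library lay below both.

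ABCC3 kept its FedP call when any 1 of the 4 libraries was left out (edgeR adjusted p up to 0.0128), and lost its RuxP call without the first RuxP library (edgeR adjusted p = 0.0560). In the 14 libraries of the other tables, which were scaled separately, ABCC3 ranged from 1.55 to 20.2 CPM. The persistent values lay within that range and the parental values above it. This was not tested across tables.

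Of 38 tested ABC genes, 2 were called in RuxP, 5.26% against 6.44% of all 15924 genes (4.28% up and 2.17% down). The groups did not overlap for 23 ABC genes, against 47.8% of all genes. The other call was ABCC9, with 3.06 and 2.10 CPM in RuxP, against 0.452 and 0.639 CPM in parental cells, from 152 and 123 counts in RuxP and 26 and 33 counts in parental cells. Its log2 fold change was 2.24 (SE 0.40, edgeR adjusted p = 0.0302), and it lost the call without the first parental or the first RuxP library (edgeR adjusted p up to 0.104) and in a fit of the 2 groups alone (0.113). In FedP it had 1.64 and 1.84 CPM and a log2 fold change of 1.67 (SE 0.40, edgeR adjusted p = 0.0634), which did not pass.

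In FedP, 4 ABC genes were called, 10.5% against 6.63% of all genes, 2 up and 2 down, against 3.84% of all genes up and 2.79% down. The groups did not overlap for 25 ABC genes, against 63% of all genes. ABCA1 had 5.68 and 5.35 CPM in FedP, 1.73 and 3.03 CPM in RuxP and 1.01 and 1.26 CPM in parental cells, a log2 fold change of 2.28 (SE 0.35, edgeR adjusted p = 0.0200) in FedP and 1.07 (SE 0.35, edgeR adjusted p = 0.131) in RuxP. ABCG1 had 69.9 and 66.0 CPM in FedP, 27.9 and 31.6 CPM in RuxP and 24.3 and 15.2 CPM in parental cells, a log2 fold change of 1.78 (SE 0.25, edgeR adjusted p = 0.0152) in FedP and 0.59 (SE 0.24, edgeR adjusted p = 0.209) in RuxP. Both sterol exporters were ordered FedP, RuxP, parental without overlap. In the 14 libraries of the other tables, which were scaled separately, ABCA1 ranged from 2.55 to 15.5 CPM. The FedP values of ABCA1 lay within that range and the parental values below it. ABCG1 averaged 58.1 CPM after 4 h and 90.8 CPM after 48 h of DMSO, above its parental values. This was not tested across tables. ABCA1 lost its FedP call without either FedP library (edgeR adjusted p up to 0.115) and ABCG1 without the first (0.0592).

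ABCA6, a lipid transporter in a cluster of A-type genes on chromosome 17, had 4 and 2 counts in FedP, 60 and 16 counts in RuxP and 106 and 159 counts in parental cells. The fitted log2 fold change in FedP was -6.04 (SE 0.98, edgeR adjusted p = 0.0232). The ratio of summed counts, corrected for depth, was 0.0146 in FedP over parental cells, with a 95% counting interval from 0.00532 to 0.0323. This interval treats counts as independent and may be too narrow, since small counts were more often even than odd. ABCA6 passed the low-count filter through the groups where it was high and had at most 4 counts in each of the 14 other libraries. Its call was lost without the second parental library or either FedP library (edgeR adjusted p up to 0.108).

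Its neighbours ABCA9 and ABCA10 also had their highest counts in parental cells. ABCA9 had 6 and 0 counts in FedP, 0 and 10 counts in RuxP and 15 and 18 counts in parental cells, and ABCA10 had 0 and 8 in FedP, 0 and 0 in RuxP and 13 and 17 in parental cells. Both passed the low-count filter in this table alone, where parental cells were highest, and neither was called in either line. In the other tables both had at most 6 counts in a library. By GENCODE 29 the cluster runs from ABCA8 (start 68867292) to ABCA5 (end 69327244) on chromosome 17 of GRCh38.

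The classical pumps were not called in either line in the fit of all groups. ABCB1 had a log2 fold change of -0.71 (SE 0.17, edgeR adjusted p = 0.0665) in FedP and -0.51 (SE 0.17, edgeR adjusted p = 0.143) in RuxP. The FedP value of ABCB1 was called with no low-count filter (edgeR adjusted p = 0.0492), by DESeq2 (adjusted p = 0.00562) and without the first parental library (edgeR adjusted p = 0.00688), and the RuxP value without the first parental library (edgeR adjusted p = 0.0274), with edgeR adjusted p up to 0.540 in FedP and 0.456 in RuxP in other alternatives. ABCC1 had -0.37 (SE 0.22, edgeR adjusted p = 0.35) in FedP and -0.60 (SE 0.22, edgeR adjusted p = 0.177) in RuxP, and ABCG2 -0.09 (SE 1.40, edgeR adjusted p = 0.974) in FedP and -1.07 (SE 1.45, edgeR adjusted p = 0.689) in RuxP. A further 8 genes in FedP and 13 in RuxP had an unadjusted p under 0.05 without passing the adjusted test. They included ABCB9 in FedP, with a log2 fold change of 1.26 (SE 0.29, edgeR adjusted p = 0.0605), and ABCA7 in RuxP, with one of -1.44 (SE 0.35, edgeR adjusted p = 0.0677). With 1 library left out, the RuxP count ran from 0 (without the first RuxP library) to 11 (without the second parental library), while calls over all genes ran from 170 to 4157 in the same fits. The FedP count ran from 1 (without the first FedP library) to 14 (without the first parental library), with 197 and 5293 calls over all genes.

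ABCC4 had 698 and 699 CPM in FedP, 879 and 796 CPM in RuxP and 809.8 and 985 CPM in parental cells, and did not pass in either line. Beside it, 3 of 5 megakaryocyte genes fell in each line, PF4 and ITGB3 among them, and 2 did not pass, with log2 fold changes for PF4 of -4.74 in FedP and -4.72 in RuxP and for ITGB3 of -1.95 in FedP and -2.62 in RuxP. The 5 megakaryocyte genes summed to 2352 to 2428 CPM in FedP, 1076 to 1405 CPM in RuxP and 2228 to 3722 CPM in parental cells, and the 8 erythroid genes to 2047 to 2098, 1145 to 1218 and 1384 to 1917 CPM in the same order. The 12 genes of other cell types summed to 178 to 186 CPM in FedP, 257 CPM in RuxP and 793 to 795 CPM in parental cells, nearly all of it PECAM1, LYZ and CDH5. The part of these genes in the ABC results was not tested.

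No ABC gene was called between FedP and RuxP (0 of 38, against 1.39% of all genes, 0.232% up and 1.16% down) by edgeR, with 15 at an unadjusted p under 0.05, while DESeq2 called 13 and a fit of the 2 lines alone called 15. Over all genes these 3 fits called 222, 3605 and 5783. FedP and RuxP did not overlap for 29 ABC genes, against 76% of all genes. The log2 fold changes of the 15 ran from -4.30 for ABCA6 to 1.68 for ABCA7 (edgeR adjusted p = 0.0796). ABCA7 had 529 and 501 CPM in FedP, against 135 and 187 CPM in RuxP, and its parental libraries at 586 and 286 CPM spanned the FedP values.

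**Figure D5:**
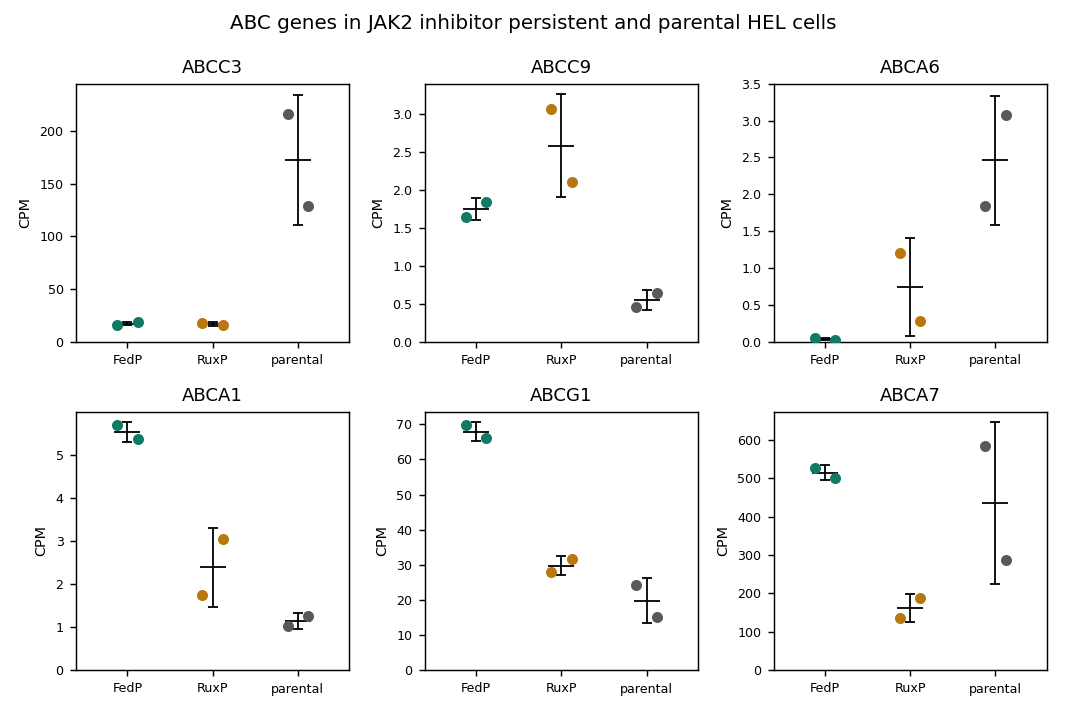
CPM of 6 ABC genes in every FedP, RuxP and parental library (points), with mean and SD (bars, n = 2). ABCC3 is near 17 CPM in both persistent lines and at 172 ± 61.8 CPM in parental cells, and ABCA1 and ABCG1 are highest in FedP.

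Among partners in the persistent cells, the sterol list had 1 up of 13 in FedP and 2 up and 1 down in RuxP. Of all genes, 6.63% were called in FedP and 6.44% in RuxP. APOE, an acceptor of exported cholesterol, rose by 3.06 (SE 0.26, edgeR adjusted p = 0.00465) in FedP and 1.53 (SE 0.25, edgeR adjusted p = 0.0214) in RuxP. NR1H3, a receptor that controls ABCA1 and ABCG1, had -1.22 (SE 0.20, edgeR adjusted p = 0.0244) in RuxP. The glutathione list had 2 up of 16 in FedP and 1 up in RuxP, with the transferase GSTP1 at 3.89 in FedP and 2.88 in RuxP. Of 15 tested genes of other drug transport, MVP, the vault protein, rose by 0.89 and the carnitine importer SLC22A5 by 1.36 in FedP, and ATP7B had -1.42 in RuxP. The antigen peptide and ribosome lists had no call by edgeR in either line, with 2 and 1 genes at an unadjusted p under 0.05 in FedP and 2 each in RuxP. The peroxisomal list had 1 up of 12 in FedP and 2 in RuxP (ACSL1 at 1.26 in FedP and 1.04 in RuxP), the mitochondrial list 1 up and 2 down of 14 in FedP and 2 down in RuxP, and the regulators 1 down of 12 (FOXO3, -0.75) in FedP and none in RuxP, where 4 had an unadjusted p under 0.05.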

How the data were processed

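RNA-seq counts per gene came from 3 tables that the authors deposited, 1 each for BCI, BI-D1870 and the persistent cells. The deposited values are whole-number read counts with no normalization. Per the submitters' processing notes, bcl2fastq, STAR 2.5.1a, the GRCh38 build and edgeR were used; which program counted the reads, with which strand option and annotation release, is not given in the sources used here. Columns of the BCI table headed 24h belong to samples whose labels give 48 h, and the labels were followed. No value column lacked a sample (0). Repeated lines of a gene identifier, 116, 116 and 130 in the BCI, BI-D1870 and persistent tables, held equal counts and were used once.

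Each table was fitted on its own with all its groups in 1 model (R 4.3.3, edgeR 4.0.16, limma 3.58.1): filterByExpr, TMM scaling, the quasi-likelihood test without a replicate block, and Benjamini-Hochberg adjustment over all genes tested, with a threshold of 0.05. The biological coefficient of variation was 13.3%, 5.01% and 26.9% in the BCI, BI-D1870 and persistent tables. CPM used TMM-scaled library sizes, and CPM per kb the merged exonic length in GENCODE 29. A count of 0 allows up to 3 counts. Intervals and limits cover counting error only and treat counts as independent. Of the small nonzero counts of a library, 59.8% to 73.1% were even, so these intervals and limits may be too narrow. The reason was not tested. The fit was tested on simulated counts. It recovered 59.7% of 2-fold changes for BCI at 4 h, 79.1% for BI-D1870 and 5.97% for RuxP. Of 4-fold changes it recovered 87.9%, 92.4% and 81.8% in the same order. These shares need not hold for genes of low counts. Nor need they hold where many genes change, as with BI-D1870, where 47.1% of all genes were called.

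The genes, lists and tests were chosen with earlier results of these data known. Values in every library are given for ABCB1, ABCC1, ABCG2 and called genes, up to 12 per comparison by size of the log2 fold change; other genes named were chosen after their values were seen. In each partner list up to 4 called genes with the largest log2 fold change were named. Alternatives were DESeq2 1.42.0, DESeq2 size factors, dropping or tightening the filter on low counts, and halved counts. Others were the groups compared alone, a replicate block, and leaving out each library. Replicate numbers come from the labels and were not taken to pair samples. A few genes of the family and lists are counted in the totals but not reported here by name.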

Additional observations from a re-analysis of the deposited data

Results flagged for a closer look

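The BCI effect differed between times for 2 ABC genes, by a test of the difference itself in the edgeR quasi-likelihood fit. For ABCB1 the log2 fold change at 48 h minus that at 4 h was -0.91 (edgeR adjusted p = 0.00334). For ABCD4 it was -0.74 (edgeR adjusted p = 0.0291). Both BCI libraries lay above both DMSO libraries at 4 h and the groups overlapped at 48 h, for each gene. The DMSO libraries themselves were higher at 48 h than at 4 h, with 123 and 135 CPM of ABCB1 at 48 h against 97.2 and 96.0 CPM at 4 h, and 26.1 and 27.2 CPM of ABCD4 at 48 h against 18.7 and 19.2 CPM at 4 h. What this adds to the difference was not tested.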

How the results depend on the processing

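Numbers of called ABC genes are given here as alternative against reported, with calls over all genes in parentheses. For BCI at 4 h a replicate block gave 8 (2936) and a fit of the compared groups alone 16 (5691), against 5 (2354). For the difference of the BCI effect between times, no low-count filter gave 4 (1658), DESeq2 4 (1427) and the block 4 (1164), against 2 (757). For both inhibitors against BI-D1870, no filter gave 5 (1314), against 3 (1004). For RuxP, no filter gave 5 (1836), a mean of at least 1 CPM 1 (968), DESeq2 8 (2469), the block 1 (324), the compared groups alone 1 (419) and the crossed block 6 (2282), against 2 (1026). For FedP, no filter gave 7 (1818), DESeq2 8 (2560) and the block 1 (272), against 4 (1055). For FedP against RuxP, no filter gave 12 (2886), DESeq2 13 (3605) and the compared groups alone 15 (5783), against 0 (222). The causes were not tested.

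With 1 library left out, the counts ran from 2 to 2 for BCI at 4 h, 0 to 0 at 48 h, 0 to 4 for the difference, 20 to 22 for BI-D1870, 20 to 21 for both inhibitors, 0 to 3 between these, 0 to 11 for RuxP, 1 to 14 for FedP and 0 to 0 for FedP against RuxP. A group then had 1 library, assumed to vary like the others.

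Of 661 alternatives on called genes, 612 kept direction and call, 49 lost the call and none reversed. Most of the 661 concern BI-D1870, with or without BCI, against DMSO, where only ABCC5 and ABCF2 lost a call. Calls in the other comparisons were lost more often. Of the alternatives on uncalled values of ABCB1, ABCC1 and ABCG2, 6 gained a call. Other uncalled genes were not followed singly. Among the values followed, the log2 fold change changed sign when 1 library was left out in uncalled values of ABCB1, ABCC1 and ABCG2. At 48 h it ran from -0.030 to 0.094 for ABCB1, -0.19 to 0.11 for ABCC1 and -1.42 to 0.65 for ABCG2. For the difference between times it ran from -0.21 to 0.092 for ABCC1 and -1.60 to 0.47 for ABCG2. It ran from -0.67 to 0.24 for ABCG2 with BI-D1870, and from -0.051 to 0.022 for ABCC1 with both inhibitors against BI-D1870. In FedP it ran from -0.53 to 0.54 for ABCG2 against parental cells (0.15 under the block). Against RuxP it ran from -0.0024 to 0.53 for ABCC1 and from -0.0024 to 8.50 for ABCG2, where the last rests on the RuxP library with 0 counts and depends on the prior count.

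The labels number the 2 libraries of each group, and same-numbered libraries correlated from -0.53 (RuxP and parental cells) to 0.74 (BCI and DMSO at 48 h) in their deviations, so the numbers were not taken to pair them. With the block, ABCA1, ABCG1 and ABCA6 were not called in FedP nor ABCC9 in RuxP. A fit of the 48 h groups alone with the block called 18 genes, 0 of them ABC genes, and 3 ABC genes had an unadjusted p under 0.05. The crossed block was chosen after seeing the data. Genes under about 50 counts, 2 libraries a group and the spread of the parental libraries limit what could be called.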

Other observations

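The DMSO libraries of 48 h and of 4 h in the BCI table differed from each other, a contrast that no comparison of the study uses and that was not tested, nor can time be told apart from any other difference in handling. Of 35 ABC genes, 27 did not overlap between DMSO 48 h and DMSO 4 h, 19 of them higher and 8 lower at 48 h, and 63% of all genes tested did not overlap. ABCA7 averaged 294 ± 57.3 CPM at 48 h and 97.5 ± 1.79 CPM at 4 h (SD, n = 2 each), a ratio of 3.02. ABCF1 and ABCF2 had ratios of 0.649 and 0.647. The median log2 ratio was 0.40 over the ABC genes and 0.04 over all genes tested.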
